A study of Mus musculus with 8 samples.

Results

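Expression of 9 tumour driver genes was followed by RNA sequencing in cell lines from mouse pancreatic cancer (pancreatic ductal adenocarcinoma, PDAC) of the iKPC model: Hras, Nras, Trp53, Mdm2, Cdkn1a, Ccng1, Cdkn2a, Cdkn2b and Smad4. They were taken by symbol as 9 of the 39179 genes in the deposited gene tables, each symbol matched 1 row, and all 9 were among the 16192 genes that passed the filter on low counts. The iKPC model is a genetically engineered mouse with an inducible Ras oncogene. Cell lines 1, 2, 3 and 4 each gave a pair of libraries, 1 with overexpressed WT-USP21 and 1 with overexpressed ED-USP21, so that each construct has 4 libraries. USP21 removes ubiquitin from other proteins, and the meaning of ED is left unstated in the labels. All 8 libraries share a tetO-driven inducible oncogene transgene, ROSA_rtTA, which encodes the doxycycline-responsive activator, and p48-Cre, a Cre recombinase driven in the developing pancreas. The strain label is FVB/C57Bl6 for lines 1 and 2, and C57BL/6 for lines 3 and 4. The labels name no Trp53 allele, although the published iKPC model carries a conditional one. All libraries hold a USP21 construct, and neither the presence of doxycycline nor the age of the mice is stated in the labels.

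The 9 genes belong to pathways that are altered in most pancreatic cancers. Ras proteins are membrane switches that are active when bound to GTP and drive the MAP kinase and PI3 kinase cascades. p53, encoded by Trp53, is a transcription factor that halts the cycle or starts cell death after damage or oncogene signalling, and its target Mdm2 is the ubiquitin ligase that destroys it. The Cdkn2a gene makes 2 proteins from separate starts, p19Arf, which restrains Mdm2, and p16Ink4a, which, like p15Ink4b from the neighbouring Cdkn2b, inhibits the kinases Cdk4 and Cdk6 and so keeps the retinoblastoma protein active. Smad4 is the shared partner of the receptor-activated Smads and carries TGF-beta signals to the nucleus. Loss of p53, of the Cdkn2a products or of Smad4 accompanies oncogenic Ras in much of human pancreatic cancer.

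Each library held between 72828184 and 107551210 reads in genes. Both libraries of line 1 stood apart from the other 6, so differences between lines are also given for lines 2 to 4 among themselves. Ductal epithelial markers summed to 7787 to 13476 CPM (gene counts scaled to the library total) in WT-USP21 libraries and to 8336 to 11230 CPM in ED-USP21 libraries. Keratins made up most of that sum, whereas Epcam averaged 1.50 CPM with WT-USP21 and 0.94 CPM with ED-USP21, and Cldn4 0.12 and 0.03 CPM. Summed fibroblast markers were at 6.8 to 18.1 CPM with WT-USP21 and 4.8 to 8.4 CPM with ED-USP21. Immune markers were at 6.1 to 13.2 CPM with WT-USP21 and 5.1 to 16.2 CPM with ED-USP21, and acinar and endocrine markers at 2.2 to 9.3 and 2.7 to 11.3 CPM. Endothelial markers were at 2.4 to 7.5 CPM with WT-USP21 and 0.7 to 0.9 CPM with ED-USP21. Among them Kdr averaged 4.81 CPM with WT-USP21 and 0.33 CPM with ED-USP21, and in line 1 it averaged 0.03 CPM. The fibroblast markers Dcn and Lum and the acinar regulator Ptf1a had 0 reads. Usp21 itself, the check of the construct, had 147, 944, 539 and 941 CPM in WT-USP21 libraries of lines 1 to 4, against 1657, 3132, 1661 and 2721 CPM in the ED-USP21 libraries. Its groups did not overlap, as was the case for 1.78% of all genes tested, and in each line the ED-USP21 library held the higher level. Even so, Usp21 was not called within lines, at -2.07 on the log2 scale for WT-USP21 minus ED-USP21 (SE 0.35, edgeR quasi-likelihood test, adjusted p = 0.205). Reads of the construct and of the endogenous gene are not separated, so these values do not check which construct a library holds, and all directions below follow the labels. Line 1 held the most ductal marker RNA under each construct, 13476 CPM with WT-USP21 and 11230 CPM with ED-USP21. Of the 8 ductal markers tested, 4 differed between lines, beside 24.8% of all genes. Krt8, Krt18 and Epcam among them were highest in line 1, whereas Sox9 was lowest there, at 11.3 CPM and 25.4, 26.8 and 22.1 CPM in lines 2 to 4. Line 1 held the least immune marker RNA, 6.1 CPM with WT-USP21 and 5.1 CPM with ED-USP21, most of it from Cd68, and whether the makeup of the cultures has a part in the differences of line 1 was not tested.

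The 250 bases before the transcript starts of the Cdkn2 genes and of the p53 targets among the 9 genes are shown here, since the results turn on these genes. Windows were kept for 8 of the 9 genes, as the chromosome of Smad4 was left out. The sequences come from the RefSeq promoter table for the build GRCm38.p6. That build is later than the mm9 build behind the counts, so the coordinates are those of the table. In the first 3 sequences the capitals mark CG dinucleotides, the sites at which promoter DNA can be methylated. The Arf start of Cdkn2a on chromosome 4 (chr4:89294620-89294869, minus strand) has 40 of them and 78.4% G and C. The Ink4a start of the same gene (chr4:89282193-89282442, minus strand) has 7, and the Cdkn2b start (chr4:89311033-89311282, minus strand) has 12. The median over the 32851 promoters of that table is 6.
Cdkn2a, Arf start: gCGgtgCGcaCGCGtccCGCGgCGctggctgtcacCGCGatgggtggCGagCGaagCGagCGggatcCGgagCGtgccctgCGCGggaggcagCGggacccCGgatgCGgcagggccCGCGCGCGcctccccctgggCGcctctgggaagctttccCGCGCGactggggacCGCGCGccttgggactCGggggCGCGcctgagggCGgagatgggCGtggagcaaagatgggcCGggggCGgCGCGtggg
Cdkn2a, Ink4a start: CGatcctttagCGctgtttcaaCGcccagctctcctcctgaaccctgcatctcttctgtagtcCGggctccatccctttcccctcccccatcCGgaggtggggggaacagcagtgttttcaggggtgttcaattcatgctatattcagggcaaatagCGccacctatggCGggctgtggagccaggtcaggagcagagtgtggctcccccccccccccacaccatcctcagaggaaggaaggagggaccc
Cdkn2b: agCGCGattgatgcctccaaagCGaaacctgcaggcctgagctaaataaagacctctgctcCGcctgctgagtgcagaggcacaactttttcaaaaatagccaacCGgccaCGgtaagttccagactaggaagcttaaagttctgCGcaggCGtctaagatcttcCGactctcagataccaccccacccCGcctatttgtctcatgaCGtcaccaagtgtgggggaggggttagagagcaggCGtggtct

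In the next 3 sequences the capitals mark matches to the p53 decamer, the repeat unit of the p53 response element, searched on both strands and allowing overlaps. Of all 32851 promoter windows, 7.13% hold at least 1 match. The upstream start of Cdkn1a on chromosome 17 (chr17:29090729-29090978, plus strand) holds 2 matches, and the windows of Mdm2 on chromosome 10 (chr10:117710759-117711008, minus strand) and Ccng1 on chromosome 11 (chr11:40755287-40755536, minus strand) hold 1 each. The Trp53 window holds 1 as well, and those of Hras, Nras, Cdkn2a and Cdkn2b hold 0. The other Cdkn1a start of that table (chr17:29093519-29093768, plus strand), which is not shown, also holds 0. A match describes the letters only and was not tested for binding. The best known p53 elements of Mdm2 lie outside its window, in the first intron.
Cdkn1a: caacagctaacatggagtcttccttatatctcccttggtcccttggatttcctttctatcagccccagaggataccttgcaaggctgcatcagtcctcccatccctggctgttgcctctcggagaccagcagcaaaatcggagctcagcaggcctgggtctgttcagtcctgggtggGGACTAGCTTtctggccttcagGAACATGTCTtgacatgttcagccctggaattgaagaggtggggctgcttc
Mdm2: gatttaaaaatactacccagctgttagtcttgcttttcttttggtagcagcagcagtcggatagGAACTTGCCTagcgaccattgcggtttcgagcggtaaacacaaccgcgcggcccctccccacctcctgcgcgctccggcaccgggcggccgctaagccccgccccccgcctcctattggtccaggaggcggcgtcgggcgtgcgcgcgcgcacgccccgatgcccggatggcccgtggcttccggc
Ccng1: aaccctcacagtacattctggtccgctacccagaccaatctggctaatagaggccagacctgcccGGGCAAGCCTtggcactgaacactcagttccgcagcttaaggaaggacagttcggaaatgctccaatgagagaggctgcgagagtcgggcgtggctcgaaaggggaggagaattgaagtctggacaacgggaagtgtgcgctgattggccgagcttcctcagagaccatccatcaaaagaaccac

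The largest differences lay in the pair of cell cycle inhibitors at the Cdkn2 locus, which were abundant in line 1 and far lower in lines 2, 3 and 4. Cdkn2a had 146, 1.66, 0.105 and 3.03 CPM in WT-USP21 libraries of lines 1 to 4, from 13483, 167, 10 and 261 reads. In ED-USP21 libraries it had 96.2, 0.230, 0.183 and 1.38 CPM, from 9990, 17, 17 and 107 reads. Both libraries of line 1 were far above the other 6, and within the other lines line 4 was highest and line 3 lowest. Cdkn2b followed the same order, with 115, 0.992, 0.0525 and 2.60 CPM in WT-USP21 libraries and 77.8, 0.419, 0.204 and 1.16 CPM in ED-USP21 libraries. Its lowest library, WT-USP21 in line 3, held 5 reads.

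In WT-USP21 libraries, Cdkn2a was 1396 times higher in line 1 than in line 3 (95% interval 759 to 2912, exact, counting error only) and Cdkn2b 2184 times (936 to 6729). In ED-USP21 libraries the same ratios were 526 (328 to 904) and 381 (244 to 633). The ratio of line 1 to line 4, the next in the order, was 48.3 with WT-USP21 and 69.8 with ED-USP21 for Cdkn2a, and 44.1 and 67.1 for Cdkn2b.

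Tested over the 4 lines with the construct as a covariate (edgeR quasi-likelihood test, Benjamini-Hochberg adjustment over all genes tested), 24.8% of all genes differed between lines at an adjusted p under 0.05. On simulated counts the calls of this test held more unchanged genes than that threshold allows, so calls close to it are less certain. Cdkn2a spanned 9.74 on the log2 scale between its highest and lowest line (adjusted p = 0.000786) and Cdkn2b 9.51 (adjusted p = 0.000510). Both calls held in all 15 alternative settings tried. Between pairs of lines, adjusted over all genes and the 6 pairs, line 1 was above each of the others for both genes, as 13.6%, 11.8% and 13.3% of all genes were against lines 2, 3 and 4. Leaving line 1 aside, line 3 was below line 4, with a difference of -3.86 for Cdkn2a (adjusted p = 0.0194) and -3.78 for Cdkn2b (adjusted p = 0.0123), where 1.70% of all genes were called. For Cdkn2a, lines 2 and 3 (2.57, adjusted p = 0.0803) and lines 2 and 4 (-1.29, adjusted p = 0.187) did not differ beyond the spread of their libraries. The same held for Cdkn2b, at 2.39 (adjusted p = 0.0628) and -1.39 (adjusted p = 0.110).

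The split of reads between the genes was similar in line 1 and line 4. Of the reads on Cdkn2a and Cdkn2b together, Cdkn2a took 56.1%, 62.5%, 66.7% and 53.8% in WT-USP21 libraries of lines 1 to 4, and 55.3%, 35.4%, 47.2% and 54.3% in ED-USP21 libraries. The Wilson 95% intervals were wide where reads were few, 41.7% to 84.8% for WT-USP21 in line 3 and 23.4% to 49.6% for ED-USP21 in line 2, and cover counting error only. Gene counts do not separate the Arf and Ink4a transcripts, so which of the starts shown above was used was not analysed here. In bulk RNA, fewer cells that express a gene and less RNA in each cell cannot be told apart, which applies to the low levels of both genes in lines 2 to 4.

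Other genes with at least 20 CPM in both libraries of line 1 and under 1% of that level in line 3 were looked up after these values had been seen, and 13 were found. In line 4 they stood at 0.237% to 2.11% of the line 1 mean with WT-USP21 and at 0.0199% to 1.77% with ED-USP21. There Cdkn2a stood at 2.50% with WT-USP21 and 1.14% with ED-USP21, and Cdkn2b at 2.70% and 1.20%, above the 13 genes with WT-USP21 and within their range with ED-USP21. In line 2 the 13 genes reached up to 1.09% with WT-USP21 and 1.69% with ED-USP21. Cdkn2a stood at 1.37% with WT-USP21 and 0.189% with ED-USP21 there, and Cdkn2b at 1.03% and 0.435%, so Cdkn2a with WT-USP21 was above them and the other 3 values were within their range. Line 3 served to choose the genes and gives no comparison. Few genes were called among lines 2 to 4, so this choice also favours genes that are low in lines 2 and 4. Cdkn2a and Cdkn2b meet the same rule, and the ranges of the 13 genes are a description only. Whether reads carried over between libraries contribute to these low values was not tested.

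Mtap, Gm12602, Klhl9 and Focad, on the Cdkn2a side of the locus, were read in all 8 libraries. Mtap, the next gene, which encodes the methylthioadenosine phosphorylase of the methionine salvage pathway and is often deleted together with CDKN2A in human tumours, had 224, 154, 150 and 160 CPM in WT-USP21 libraries of lines 1 to 4 and 280, 141, 147 and 144 CPM in ED-USP21 libraries. It was higher in line 1 than in lines 2, 3 and 4 by 0.77, 0.76 and 0.73 on the log2 scale (adjusted p = 0.0172, 0.0175 and 0.0203). The libraries of lines 2 to 4 lay between 141 and 160 CPM. The non-coding Gm12602, between Klhl9 and Mtap, ran the other way and was lower in line 1 than in lines 2, 3 and 4 by 1.10, 0.99 and 1.07 (adjusted p = 0.0273, 0.0374 and 0.0305). Klhl9, a substrate adaptor of a ubiquitin ligase, averaged 173 CPM in WT-USP21 and 178 CPM in ED-USP21 libraries, and Focad 44.5 and 50.3 CPM. Neither passed the threshold between lines (spread 0.19 and 0.24, adjusted p = 0.636 and 0.467).

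Most of the remaining neighbours were at or near 0. Dmrta1 had 0 to 6 reads, Ifne 0 to 6, Zfp352 0 to 22 and Elavl2 0 to 1 in each library, and Ifna1 had 0 reads throughout. Ifnb1, the interferon beta gene of the adjoining interferon cluster, averaged 0.0080 CPM in WT-USP21 and 0.0034 CPM in ED-USP21 libraries. Ptplad2 averaged 4.99 and 3.47 CPM and differed between lines (spread 2.22, adjusted p = 0.0351), with 1.42 CPM in line 1 and 4.19, 6.32 and 4.99 CPM in lines 2, 3 and 4. DNA copies and methylation of the locus were not measured, so their part in these levels was not tested.

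**Figure D1:**
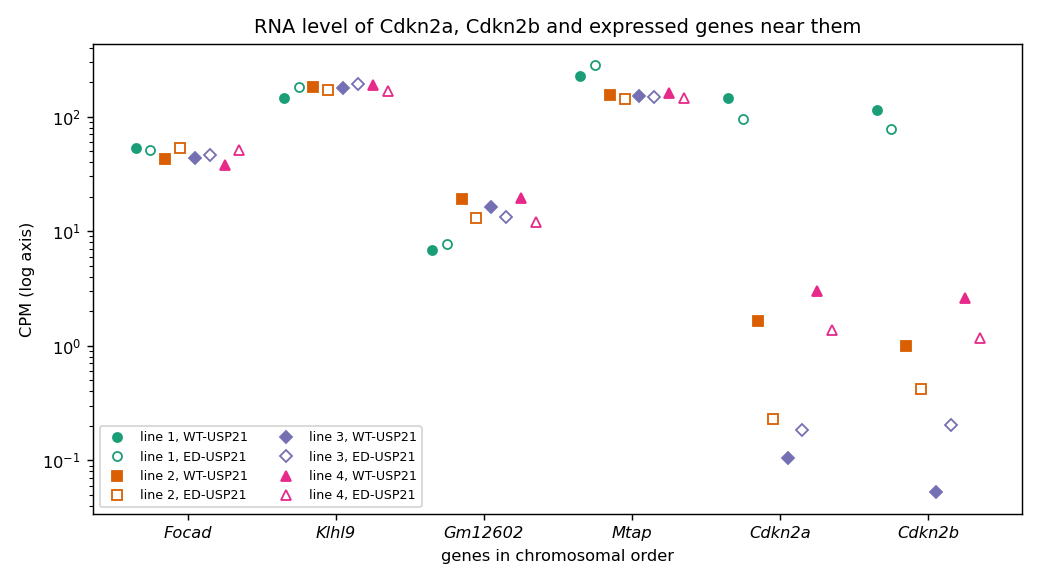
CPM (log axis) of Cdkn2a, Cdkn2b and their neighbours on the chromosome in each of the 8 libraries, with genes in chromosomal order along the x axis and no distances to scale. Cdkn2a and Cdkn2b lie between 77.8 and 146 CPM in line 1 and at 3.03 CPM or less in lines 2 to 4, while Mtap stays between 141 and 280 CPM in every library.

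The other members of the p53 pathway differed far less between lines than the Cdkn2 pair. Trp53 had 4.56, 7.05, 5.46 and 5.95 CPM in WT-USP21 libraries of lines 1 to 4 and 4.40, 6.66, 5.61 and 6.82 CPM in ED-USP21 libraries, from 420 to 710 reads each. Line 1 held the lowest value under both constructs. The lines spanned 0.61 on the log2 scale, which missed the threshold (adjusted p = 0.0984), and none of the 6 pairs of lines was called. The spread was called by DESeq2 (adjusted p = 0.0105) and by edgeR among genes with a mean of at least 5 CPM (adjusted p = 0.0470), and by none of the other 13 alternatives. The widest pair, line 1 minus line 2, was at -0.61 (adjusted p = 0.0623).

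Trp53 RNA was low in relation to its length. Divided by exon length, Trp53 averaged 1.44 CPM per kilobase, the 33.7th percentile of all genes tested that have a length, and ranged between 1.09 and 1.74 CPM per kilobase over the libraries. On the same scale Mdm2 averaged 11.8 and Ccng1 24.3 CPM per kilobase. The p53 pseudogene Trp53-ps shares 3.64% of the 50-base stretches of Trp53 and had 0 reads, and Wrap53, which starts beside Trp53 on the other strand, had 18.2 to 24.1 CPM. No source states whether the counting used strand, so Trp53 and Wrap53 reads from a shared stretch cannot be told apart. Which exons gave the Trp53 reads was not analysed here. None of the 3 nearest genes on each side of Trp53 was called between lines, where 24.8% of all genes were. These were Dnah2, Efnb3, Wrap53, Atp1b2, Shbg and Sat2.

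Mdm2, which destroys p53 and is also its transcriptional target, was the steadiest of the 9 genes over the lines. It had 66.8, 59.0, 57.4 and 66.1 CPM in WT-USP21 libraries of lines 1 to 4 and 63.3, 54.5, 57.0 and 57.4 CPM in ED-USP21 libraries. All 8 libraries lay between 54.5 and 66.8 CPM, with line 1 highest under each construct. The spread of 0.20 was not called (adjusted p = 0.253).

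Cdkn1a, the p53 target that encodes the cyclin-dependent kinase inhibitor p21, had 15.3, 7.04, 6.80 and 6.33 CPM in WT-USP21 libraries and 11.9, 7.26, 9.46 and 7.93 CPM in ED-USP21 libraries of lines 1 to 4. Line 1 was highest under both constructs, and the other 6 libraries did not reach it. Its spread was 0.95 (adjusted p = 0.0492), with line 1 above line 2 by 0.94 (adjusted p = 0.0470) and above line 4 by 0.95 (adjusted p = 0.0459). The difference from line 3 was 0.76 (adjusted p = 0.0843). The call of the spread was lost when any library other than ED-USP21 in line 1 was left out (adjusted p = 0.0813 to 0.145). Of the 50-base stretches of Cdkn1a, 8.49% occur in other genes, so some of its reads could have been assigned elsewhere or left out.

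Ccng1, which encodes cyclin G1 and is among the most widely used readouts of p53 activity, had 114, 72.2, 80.8 and 79.7 CPM in WT-USP21 libraries and 107, 68.8, 86.6 and 72.4 CPM in ED-USP21 libraries. Line 1 was above all other libraries. Ccng1 was higher in line 1 than in line 2 by 0.65, line 3 by 0.40 and line 4 by 0.54, all 3 called, and its spread of 0.65 had an adjusted p of 0.0119. That call was lost when either library of line 2 was left out (adjusted p = 0.0639 without WT-USP21 and 0.0649 without ED-USP21). No pair among lines 2, 3 and 4 was called for Mdm2, Cdkn1a or Ccng1, in pairs for which 1.95% (2 against 3), 0.216% (2 against 4) and 1.70% (3 against 4) of all genes were called.

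**Figure D2:**
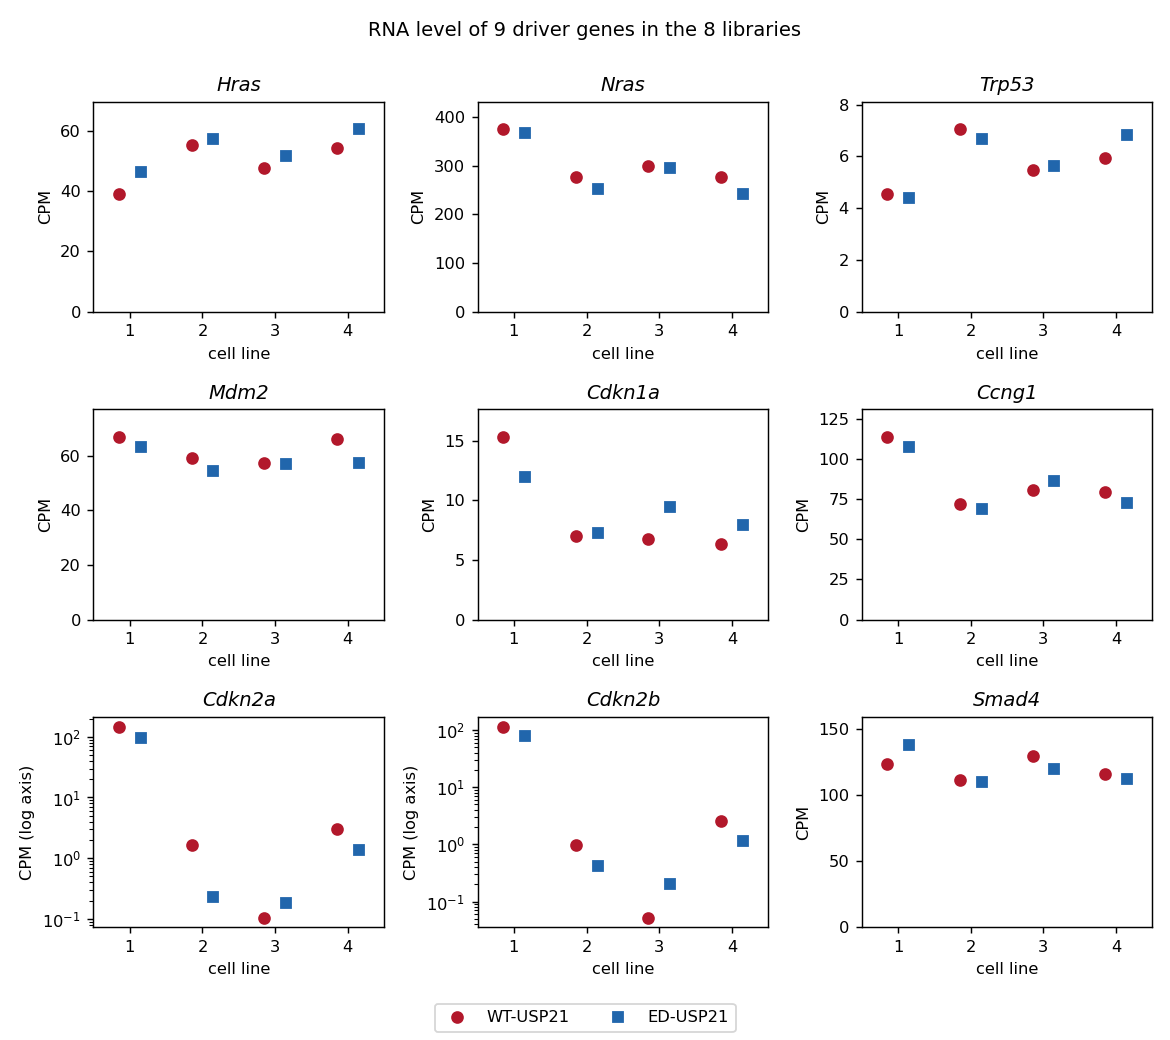
CPM of each of the 9 genes in each library, by cell line along the x axis and with WT-USP21 drawn left of ED-USP21 in each line. The CPM axis is logarithmic for Cdkn2a and Cdkn2b and linear for the other 7 genes. Cdkn2a and Cdkn2b lie at 77.8 CPM or more in line 1 and at 3.03 CPM or less elsewhere, whereas the other 7 genes vary far less.

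A list of 35 known p53 targets puts these values in context. Of these, 34 were found, all 34 passed the filter, and 12 differed between lines (35.3%, beside 24.8% of all genes). Against line 2, 13 of the 34 were higher in line 1 and 1 was lower, beside 13.6% and 10.4% of all genes. Against line 3, 8 were higher and 0 lower, beside 11.8% and 9.53%. Against line 4, 10 were higher and 1 lower, beside 13.3% and 10.0%. The median differences of the list were 0.36, 0.25 and 0.32 on the log2 scale, and those of all genes tested were -0.02, -0.01 and -0.03.

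Of these targets, 7 were higher in line 1 than in each of the other 3 lines, namely Ak1, Ccng1, Gadd45a, Phlda3, Psrc1, Rrm2b and Sesn2, where 9.29% of all genes were. Sesn2, a stress-induced restraint on the growth kinase mTORC1, averaged 75.9, 22.9, 24.0 and 21.4 CPM in lines 1 to 4 (spread 1.84, adjusted p = 0.00301). Gadd45a, a growth arrest gene, averaged 47.2, 14.6, 20.8 and 16.2 CPM (1.69, adjusted p = 0.0016). Rrm2b, the p53-inducible subunit of ribonucleotide reductase, averaged 40.2, 15.3, 18.4 and 17.8 CPM (1.39, adjusted p = 0.00122). Several of these genes also respond to stress without p53. The most abundant targets, Epha2 (731 CPM in WT-USP21 and 717 CPM in ED-USP21 libraries), Perp (209 and 209 CPM) and Plk2 (118 and 121 CPM), were not called between lines (adjusted p = 0.592, 0.353 and 0.276). The target called lower in line 1 was Gdf15, a stress-induced secreted factor, at 2.98 CPM against 7.29, 6.00 and 7.24 CPM, called against lines 2 and 4.

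**Figure D3:**
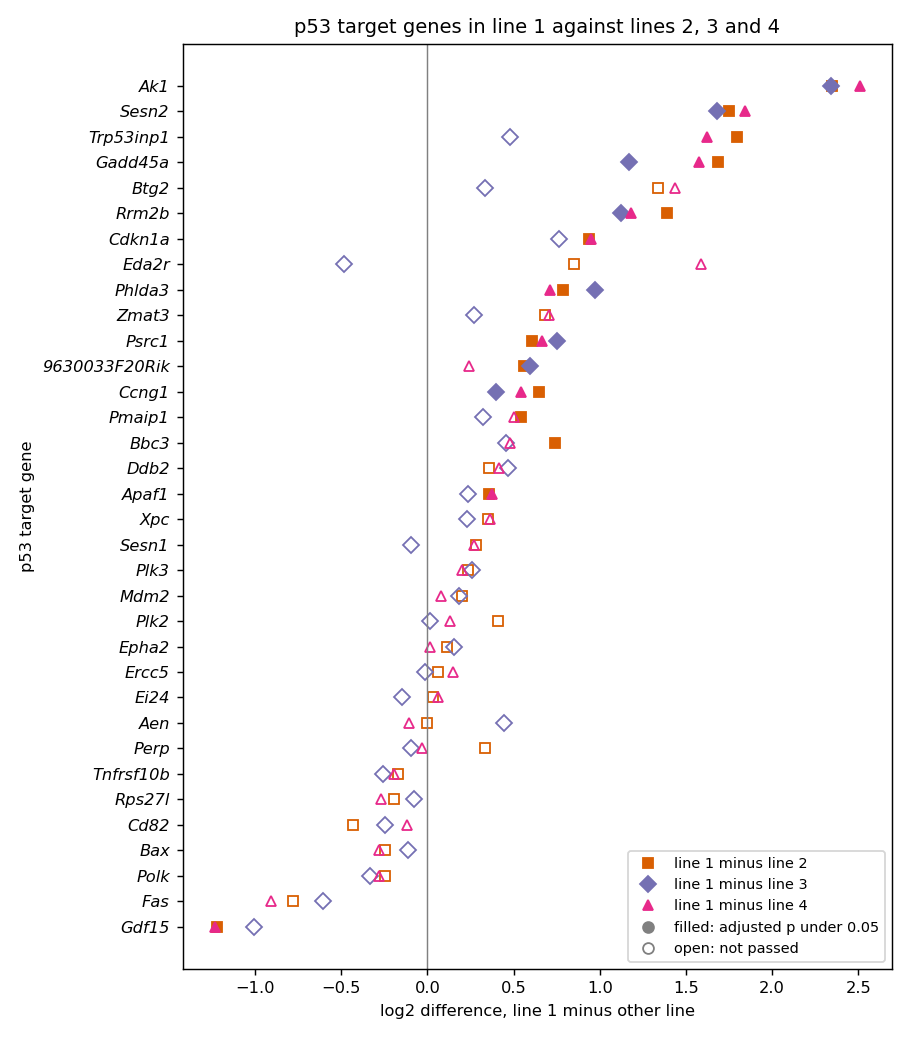
Log2 difference of each of the 34 p53 targets between line 1 and each other line, with filled symbols for calls at an adjusted p under 0.05 over all genes and the 6 pairs of lines. Ak1 stands highest in all 3 comparisons, at 2.34 to 2.51, Sesn2 lies at 1.68 to 1.84, and Gdf15 lies below 0 in each.

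Of 17 relatives and regulators of p53, 15 passed the filter and 2 differed between lines (13.3%, beside 24.8% of all genes). Usp7, the deubiquitinase that stabilises Mdm2 and p53, averaged 192 CPM in line 1 and 264, 266 and 268 CPM in lines 2 to 4 (spread 0.48, adjusted p = 0.0256). Twist1, a transcription factor that restrains p53 and Arf, had 0 reads in both libraries of line 1, beside 2079, 2089 and 2386 reads in lines 2, 3 and 4. Taking 3 counts over both libraries of line 1 as its upper limit, Twist1 was at least 777-fold, 724-fold and 951-fold higher in lines 2, 3 and 4. Ppm1d, the phosphatase that switches p53 off, and the damage kinases Atm and Atr did not pass the threshold (adjusted p = 0.0742, 0.102 and 0.0802).

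The Ras genes ran in opposite directions over the lines. Hras had 39.2, 55.3, 47.7 and 54.3 CPM in WT-USP21 libraries of lines 1 to 4 and 46.2, 57.3, 51.8 and 60.5 CPM in ED-USP21 libraries, lowest in line 1 under both constructs. Nras had 375, 277, 300 and 276 CPM in WT-USP21 libraries and 368, 253, 295 and 242 CPM in ED-USP21 libraries, highest in line 1 under both. Both genes encode closely related GTPases that use the same effectors.

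Hras was lower in line 1 than in line 2 by 0.40 (adjusted p = 0.0304) and than in line 4 by 0.43 (adjusted p = 0.0252), and its difference from line 3 was -0.22 (adjusted p = 0.154). Nras was higher in line 1 than in line 2 by 0.49 (adjusted p = 0.0174) and than in line 4 by 0.52 (adjusted p = 0.0142), with 0.32 for line 3 (adjusted p = 0.0610). The spreads were 0.43 for Hras (adjusted p = 0.0343) and 0.52 for Nras (adjusted p = 0.0181). The Nras call was lost when any library of lines 2, 3 or 4 was left out (adjusted p = 0.0508 to 0.0724), and the Hras call when any library but ED-USP21 of line 1 was (0.0619 to 0.117). Per kilobase of exon, Nras exceeded Hras 6.70, 3.51, 4.41 and 3.56 times in WT-USP21 libraries of lines 1 to 4 and 5.57, 3.09, 3.99 and 2.80 times in ED-USP21 libraries. The ratio was therefore highest in line 1, and within each line it was higher under WT-USP21.

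Among 34 Ras GTPases and regulators, 30 passed the filter and 8 differed between lines (26.7%, close to the 24.8% of all genes). Rasal2, a GTPase-activating protein that turns Ras off, averaged 112 CPM in line 1 and 37.5, 45.8 and 38.8 CPM in lines 2 to 4 (spread 1.57, adjusted p = 0.00122). Rasgrp3, an exchange factor that turns Ras on, averaged 33.7 CPM in line 1 and 7.66, 11.9 and 9.12 CPM in the others (2.18, adjusted p = 0.0149). Fnta, the shared subunit of the enzymes that attach the lipid anchor of Ras, averaged 64.7 CPM in line 1 and 39.8, 38.0 and 38.2 CPM in the others (0.77, adjusted p = 0.00483). The abundant Rasa3 and Rin1 were not called (spread 0.27 and 0.17, adjusted p = 0.524 and 0.702).

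Of 22 inhibitors and members of the cyclin D, Cdk and retinoblastoma axis, 7 differed between lines (31.8%, beside 24.8% of all genes). Cdkn2a, Cdkn2b and Cdkn1a, given above, are among these 7, so the share is not separate from their own calls. The others were Ccnd1, Ccnd2, E2f3 and the retinoblastoma gene Rb1 (spread 0.55, edgeR adjusted p = 0.0128). Ccnd1, the cyclin D1 partner of Cdk4 and Cdk6, averaged 1007 CPM in line 1 and 1742, 1708 and 1808 CPM in lines 2 to 4 (spread 0.83, adjusted p = 0.0189). Ccnd2, cyclin D2, ran the other way, with 359 CPM in line 1 and 141, 141 and 133 CPM in the others (1.44, adjusted p = 0.0354). E2f3, a transcription factor held back by the retinoblastoma protein, averaged 34.1 CPM in line 1 and 21.6, 23.0 and 21.4 CPM in the others (0.67, adjusted p = 0.0089). Cdk4 itself averaged 403, 368, 377 and 366 CPM in lines 1 to 4 and was not called (adjusted p = 0.651).

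Smad4 RNA was present at similar levels in every library. It had 123, 111, 129 and 116 CPM in WT-USP21 libraries of lines 1 to 4 and 138, 110, 120 and 112 CPM in ED-USP21 libraries. The highest line differed with the construct, line 3 under WT-USP21 and line 1 under ED-USP21. The spread was 0.24 (adjusted p = 0.213), no pair of lines was called, and none of the 15 alternative settings called it. Per kilobase, Smad4 averaged 32.3 CPM, second to Nras at 55.9 among the 9 genes, ahead of Cdkn2a at 26.6, Ccng1 at 24.3, Cdkn2b at 17.8, Hras at 13.8, Mdm2 at 11.8, Cdkn1a at 2.54 and Trp53 at 1.44. The places of Cdkn2a and Cdkn2b in that order rest on line 1 alone.

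Among the genes around Smad4, some were called between lines and others were not, where 24.8% of all genes were called. Me2, a mitochondrial malic enzyme near Smad4, had 95.5, 61.3, 58.7 and 66.9 CPM in WT-USP21 libraries of lines 1 to 4 and 107, 57.4, 54.6 and 65.5 CPM in ED-USP21 libraries, and was called between lines (spread 0.84, adjusted p = 0.00603). Elac1, a tRNA-processing enzyme, was lower in line 1 (0.74, adjusted p = 0.0183). Mbd2 and Mex3c were not called, and Dcc and Mro had 0 to 5 and 0 to 39 reads in each library. Of 17 Smads and partners, 15 passed the filter and 3 differed between lines (beside 24.8% of all genes). These were Skil, a corepressor of Smad complexes, at 380 CPM in line 1 and 203, 254 and 202 CPM in lines 2 to 4 (spread 0.91, adjusted p = 0.00240), the inhibitory Smad6 (0.80, adjusted p = 0.0189) and the receptor Tgfbr2 (0.52, adjusted p = 0.0427), both lowest in line 1. Smad3 was not called (0.27, adjusted p = 0.128).

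In all, 6 of the 9 genes differed between lines, as 24.8% of all genes did, and 17 of their 54 pairwise line comparisons were called. Of these 17, line 1 was part of 15, and the other 2 were those of Cdkn2a and Cdkn2b between lines 3 and 4. Of all genes, 13.6%, 11.8% and 13.3% were higher and 10.4%, 9.53% and 10.0% lower in line 1 than in lines 2, 3 and 4, and 1.95%, 0.216% and 1.70% were called in the pairs 2 and 3, 2 and 4, and 3 and 4.

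The study's own contrast, WT-USP21 against ED-USP21, moved none of the 9 genes past the threshold. Without the line as a block, 0% of all genes tested were called by edgeR's quasi-likelihood test, while 392 had an unadjusted p under 0.05, DESeq2 called 60 and limma 3. Within lines, with each line's pair of libraries compared, 4 genes were called, all higher in WT-USP21 libraries, or 0.0247% of all genes. None of the 9 was among them, and Cdkn2a alone of the 9 had an unadjusted p below the 0.05 level, as 1341 of all genes did. None of the 9 was called under any of the 11 alternatives of either comparison, although DESeq2 gave no adjusted p for Cdkn2a and Cdkn2b without the block. Without line 1, 746 genes (4.57% of those tested) were called within lines, and the adjusted p of the 9 genes ranged between 0.291 and 0.887. The ranges of the WT-USP21 and ED-USP21 libraries overlapped for all 9. The 4 lines are the replicates, so these p-values measure the spread between these samples only.

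The Ras genes showed small differences of 1 sign in all 4 lines. Hras averaged 49.1 ± 7.45 CPM in WT-USP21 and 53.9 ± 6.28 CPM in ED-USP21 libraries (SD, n = 4 each), and within lines it was at -0.14 on the log2 scale (SE 0.06, edgeR adjusted p = 0.611). The 4 lines gave -0.24, -0.05, -0.12 and -0.16, all below 0. Nras averaged 307 ± 46.4 CPM in WT-USP21 and 289 ± 57.2 CPM in ED-USP21 libraries, and its within-line difference was 0.10 (SE 0.06, edgeR adjusted p = 0.758), positive in 4 of 4 lines. Of all genes tested, 16.7% had 1 direction in all 4 lines, and 3 of the 9 did, with Mdm2 as the other.

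In the p53 pathway, Trp53 averaged 5.75 ± 1.04 CPM in WT-USP21 and 5.87 ± 1.12 CPM in ED-USP21 libraries, a within-line difference of -0.03 (SE 0.11, edgeR adjusted p = 0.981). The 4 lines gave 0.05, 0.08, -0.04 and -0.20, with lines 1 and 2 positive and lines 3 and 4 negative. Mdm2 averaged 62.3 ± 4.83 and 58.0 ± 3.72 CPM in WT-USP21 and ED-USP21 libraries, with 0.10 within lines (SE 0.06, edgeR adjusted p = 0.728). Its 4 line values were 0.08, 0.12, 0.01 and 0.20. Cdkn1a averaged 8.87 ± 4.31 and 9.15 ± 2.07 CPM in WT-USP21 and ED-USP21 libraries, with -0.12 within lines (SE 0.16, edgeR adjusted p = 0.901). The lines disagreed for Cdkn1a, at 0.36, -0.05, -0.48 and -0.32. Ccng1 averaged 86.6 ± 18.6 and 83.8 ± 17.5 CPM in WT-USP21 and ED-USP21 libraries, with 0.05 within lines (SE 0.06, edgeR adjusted p = 0.899) and 3 of 4 lines positive.

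The Cdkn2 genes had the largest but least precise differences. Reads were plentiful in line 1, where WT-USP21 exceeded ED-USP21 1.52-fold for Cdkn2a (95% interval 1.48 to 1.56, counting error only) and 1.47-fold for Cdkn2b (1.43 to 1.52). Line 4 gave ratios of 2.20 (1.75 to 2.78) and 2.25 (1.75 to 2.90), and line 2 gave 7.22 (4.38 to 12.7) and 2.37 (1.57 to 3.67). They lay below 1 for line 3, at 0.574 (0.235 to 1.33) and 0.257 (0.0749 to 0.711), from 10 against 17 reads and 5 against 19. The within-line differences were 1.06 for Cdkn2a (SE 0.39, edgeR adjusted p = 0.549) and 0.70 for Cdkn2b (SE 0.32, edgeR adjusted p = 0.647), with 3 of 4 lines higher under WT-USP21 for each. Each ratio compares 1 library with 1 other, and the counting intervals leave out the spread between cultures.

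Smad4 averaged 119.8 ± 8.08 CPM in WT-USP21 and 119.8 ± 13.0 CPM in ED-USP21 libraries. Its within-line difference was 0.00 (SE 0.07, edgeR adjusted p = 0.997), from lines at -0.16, 0.02, 0.11 and 0.05. It was the closest to no difference of the 9 genes.

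**Figure D4:**
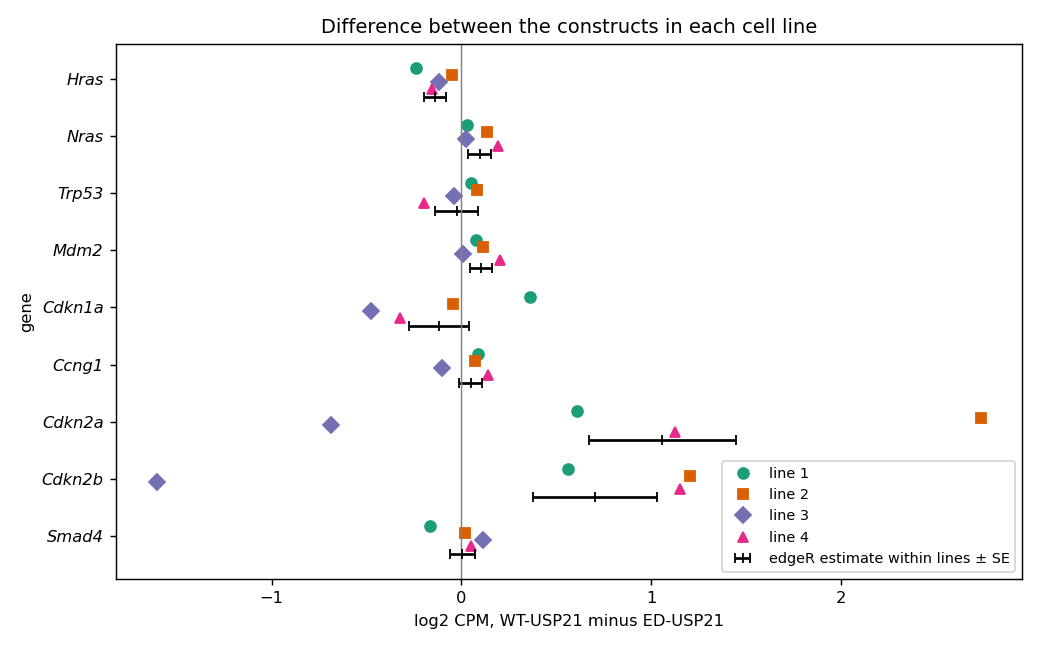
Log2 CPM difference, WT-USP21 minus ED-USP21, of each of the 9 genes in each cell line, 1 point per line. Cdkn2a and Cdkn2b reach from -1.60 to 2.74 while the other 7 genes lie between -0.48 and 0.36, and points fall on both sides of 0 for all genes but Hras, Nras and Mdm2.

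The wider lists held no call by edgeR either. Within lines, 0 genes were called among the 34 p53 targets, the 15 p53 relatives and regulators, the 30 Ras genes, the 22 genes of the retinoblastoma axis, the 15 Smads and partners and the 7 tested genes at the Cdkn2 locus, by edgeR's quasi-likelihood test. In the same order, 7, 1, 2, 3, 4 and 1 of them had an unadjusted p under 0.05, beside 1341 of the 16192 genes tested. DESeq2, which called 2.56% of the genes it gave an adjusted p, called 5 genes of these lists, of which the p53 targets Gadd45a (0.49) and Rrm2b (0.30), Twist1 (0.60) and Skil (0.24) were higher with WT-USP21 and the cell cycle factor E2f2 (-0.47) was lower. The median within-line difference of the p53 targets was 0.00, as it was for all genes tested. By line, the p53 targets had medians of 0.18, 0.02, -0.04 and 0.00 for lines 1, 2, 3 and 4. Without line 1, where 4.57% of all genes were called, 4 of the p53 targets were called, namely Btg2 at -0.76, Sesn2 at -0.33, Gadd45a at 0.52 and Phlda3 at 0.29, with no common direction. In the same setting Twist1 (0.61), the Ras relative Mras (0.89), the histone methyltransferase gene Ezh2 (0.45) and Gm12602 (0.51) were called from the other lists. So were the ductal markers Krt19 (-0.58) and Muc1 (-0.57) and the endothelial marker Kdr (3.90), which DESeq2 also called with all lines (3.77).

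Across the 8 libraries, the 2 Cdkn2 genes moved together (Pearson r = 0.99 on log2 CPM). The genes whose pattern was most like that of a member, among 12320 genes of at least 1 CPM on average, were Rrp15 for Cdkn2a (0.992) and Cdkn2b (0.997), Ifrd2 for Hras (0.977) and Pex5 for Nras (0.995). For the p53 genes they were Gm24407 for Trp53 (0.987), Cox5b for Mdm2 (0.979), Ccdc64 for Cdkn1a (0.991) and Ank for Ccng1 (0.993), and for Smad4 it was Yipf5 (0.985). These correlations are descriptions over 8 libraries in which each line supplies a pair and line 1 stands apart, so they carry no p-value. The number of genes with an r above 0.9 ranged between 31 for Mdm2 and 1178 for Ccng1. It was 1029 for Nras, 884 for Cdkn1a and 725 for Cdkn2a.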

How the data were processed

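RNA of 8 libraries, 4 lines with WT-USP21 and ED-USP21 each, was sequenced, and the values used are counts of reads per gene as deposited by the authors, neither normalised nor pooled. Per the submitters' processing notes, the tools were HTSeq, STAR, TopHat, CASAVA and Cufflinks and the build was mm9. Roles and versions are not stated there. The row of reads in no gene held 11.4% to 20.6% of each library and stayed out of totals and tests.

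From the counts, edgeR 4.0.16 in R 4.3.3 was run with TMM scaling, its filter by construct and the quasi-likelihood test. The 3 designs over all 8 libraries were construct alone, construct with the line as a block, and lines with the construct as a covariate, from which the 6 pairs of lines were also tested. P-values were adjusted by Benjamini-Hochberg over the 16192 genes tested, for pairs over all genes and pairs, and 0.05 was the threshold. The spread is the highest minus the lowest line coefficient, and SE is the log2 difference over the square root of F. CPM uses TMM-adjusted totals and log2 CPM a prior count of 2. CPM per kilobase divides by the union of exons in GENCODE vM21, which holds 37693 of the 39179 gene IDs and gave a length for 15983 tested genes. Ratios of single libraries have exact binomial intervals at 95%. DESeq2 1.42.0 and limma 3.58.1 were alternatives, as were DESeq2 size factors, no filter, a minimum mean of 5 CPM, a robust spread and leaving out lines or libraries. The procedure was tested on simulated data with known changes. There 95 genes were changed by 1 and 105 by 2 on the log2 scale. In the libraries, 4019 genes were called between lines. In that simulated setting the construct tests kept close to the threshold. The calls of the test between lines held a larger share of unchanged genes than the threshold allows and missed more of the smaller changes. Whether these shares hold for the libraries themselves was not tested.

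Same-numbered libraries come from the same cell line, per the labels, and so are paired. Their deviations from the construct means correlated at 0.770, 0.503, 0.468 and 0.347 in lines 1 to 4, and those of WT-USP21 line 4 and ED-USP21 line 2 at 0.364.

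The genes and gene lists were chosen with earlier results of these data known. Named genes are the 9 genes, from each list the 3 with the highest mean CPM, the 3 with the smallest p between lines and any called within lines, the neighbours of Trp53, Cdkn2a, Cdkn2b and Smad4 (3 on each side), the genes most like each member by Pearson correlation, and Usp21. Genes named beside these, such as Ak1, Gdf15, Mras, Btg2 and E2f2, were chosen after their values were seen. The oncogene of the model is not reported here.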

Additional observations from a re-analysis of the deposited data

Results flagged for a closer look

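In groups of 4 libraries, the gap between the extreme library and its nearest neighbour was divided by the whole range and set against Dixon's 95% critical value for that number of libraries. Chance alone would single out about 1 in 20 groups, or 1.2 of the 24 groups examined, and 5 were singled out. All 5 were line 1, which the results above already set apart. The groups are not independent, as Cdkn2a and Cdkn2b move together and both constructs share the same lines. The flags thus restate values given above, and the chance count is no test of them. The gap was 0.98 of the range for Cdkn2a in WT-USP21 libraries, where line 1 had 146 CPM, and 0.988 in ED-USP21 libraries, where it had 96.2 CPM. For Cdkn2b it was 0.978 in WT-USP21 libraries, with 115 CPM in line 1, and 0.988 in ED-USP21 libraries, with 77.8 CPM. For Cdkn1a in WT-USP21 libraries the gap was 0.921, with 15.3 CPM in line 1.

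The Trp53 difference, WT-USP21 minus ED-USP21, was above 0 in both lines labelled FVB/C57Bl6 (0.05 and 0.08 on the log2 scale) and below 0 in both labelled C57BL/6 (-0.04 and -0.20). The mean differences of the strain labels were 0.186 apart, and this was not tested. The 95% intervals of the Trp53 ratio of WT-USP21 to ED-USP21, counting error only, included 1 in lines 1, 2 and 3. In line 4 the interval was 0.770 to 0.986.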

How the results depend on the processing

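Of the settings that leave all libraries in, these moved a count of calls or a call. Without the block, DESeq2 called 60 genes and limma-trend 3, beside 0. The replicate block raised that count to 4, and no replicate block brought the within-line count to 0. Within lines, no filter gave 58, a minimum mean of 5 CPM 0, DESeq2 406 and a robust spread 1, beside 4. Between lines, DESeq2 called 6534, beside 4019. The Hras spread lost its call with no filter (0.42) and with no construct term (0.43), as did that of Cdkn1a with the CPM minimum (0.87) and limma-trend (0.93). The Trp53 spread was called with the CPM minimum (0.69) and DESeq2 (0.61). The cause was not tested. The block changed no other call of the 9 genes.

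Leaving out 1 line at a time gave 0 to 383 genes without the block and 0 to 746 within lines, both highest without line 1. Trp53 changed sign without line 4, within -0.076 to 0.035 without the block and -0.062 to 0.032 within lines. Cdkn1a did so without line 3 or 4 in the fit without the block, within -0.285 to 0.080. Smad4, near 0 with all lines, fell on both sides of 0. It lay at -0.039 to 0.067 without the block and -0.032 to 0.065 within lines. None of these was called. Leaving out 1 library at a time gave 1537 to 5001 genes between lines and 7 to 20 called pairs of 54, beside 17. The spreads then lay at 0.35 to 0.49 for Hras, 0.48 to 0.60 for Nras, 0.63 to 1.26 for Cdkn1a and 0.64 to 0.68 for Ccng1, with calls lost as given above. A lone library of a line is then assumed to vary like the others. With 5 to 19 reads, the lowest Cdkn2 libraries allow no fine comparison, and 4 lines limit small differences between constructs.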
